A study of Mus musculus with 12 samples.

Results

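Il17a, Il17f and Il22, the signature cytokine genes of T helper 17 (Th17) cells, were followed through all 12 RNA-seq libraries of a culture experiment on mouse CD4+ T cells. They are 3 of the 23991 gene IDs in the deposited expression files and were found by their gene symbols. Each had 1 entry per file, all 3 were above 0 FPKM in 12 of 12 libraries, and all 3 passed the expression filter that kept 10126 genes. FPKM is a level scaled for library size and transcript length.

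Male C57BL/6 mice aged 8 to 10 weeks gave the spleens or lymph nodes, from which CD4+ T cells were enriched by magnetic depletion of other cells and cultured for 18 h before polyadenylated RNA was sequenced. The 4 groups, with 3 libraries each, were Adcy10-/- cells in baseline media with polarizing cytokines, Adcy10-/- cells in baseline media, WT cells in baseline media with polarizing cytokines, and WT cells in baseline media. All groups share 1 culture description: plate-bound anti-CD3, anti-CD28, IL-1β, IL-6, IL-23, and antibodies that block interferon-γ and IL-4, with no TGF-β listed. The labels do not say which of these belonged to the baseline media, how Adcy10 was disrupted, whether it was disrupted in every cell of the mouse, or whether replicates came from separate mice. The p-values below thus reflect the spread among these libraries alone, which may be technical. The title of the series concerns soluble adenylyl cyclase, the product of Adcy10, in type 17 inflammation, and the comparisons ask whether levels of the 3 cytokine mRNAs differed with the genotype and with the medium.

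IL-17A and IL-17F are related secreted proteins that form homodimers and a heterodimer and signal through a receptor made of IL-17RA and IL-17RC on epithelial and other tissue cells, where they induce chemokines and antimicrobial proteins. IL-22 is a member of the IL-10 family and acts on epithelial cells through IL-22RA1 paired with IL-10RB. In CD4+ T cells the 3 genes are switched on by T cell receptor signals together with IL-6, IL-23 and IL-1β, through transcription factors that include STAT3, BATF and IRF4. Soluble adenylyl cyclase makes cAMP, which acts on transcription partly through CREB, a factor that binds cAMP response elements.

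The promoters of Il17a and Il17f are shown because these neighbouring genes are read side by side below and because CREB binds short DNA elements. The windows are the 250 bases before the transcription start in RefSeq on build GRCm38.p6, Il17a at chr1:20730655-20730904 on the plus strand and Il17f at chr1:20784271-20784520 on the minus strand, written 5′ to 3′ in the direction of transcription. Capitals mark TGACG, the core of cAMP response elements, on either strand, and TATAAA on the given strand.
Il17a: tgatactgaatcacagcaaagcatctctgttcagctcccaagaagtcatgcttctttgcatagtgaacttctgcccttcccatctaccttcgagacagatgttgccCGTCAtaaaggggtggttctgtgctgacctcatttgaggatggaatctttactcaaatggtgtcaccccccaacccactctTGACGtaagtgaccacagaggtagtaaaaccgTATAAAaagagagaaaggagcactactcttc
Il17f: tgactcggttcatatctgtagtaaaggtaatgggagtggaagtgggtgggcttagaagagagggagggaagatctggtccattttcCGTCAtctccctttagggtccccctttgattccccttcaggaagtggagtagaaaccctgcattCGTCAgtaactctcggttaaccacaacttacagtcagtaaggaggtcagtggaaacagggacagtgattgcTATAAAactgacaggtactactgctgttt
Both windows held 2 TGACG cores, whose first bases lay 144 and 63 bases before the start in Il17a and 164 and 100 bases before it in Il17f. A TATAAA box began 31 bases before the start of Il17a and 29 bases before that of Il17f. These capitals overlap nowhere. Over 32851 promoter windows of the same length, TGACG was present in 17.8% and TATAAA in 7.59%. The full palindrome TGACGTCA, which contains TGACG on both strands, was in 1.55% of windows and in none of the 3 members. Of these motifs the Il22 window held TATAAA alone, 170 bases before the annotated start. A match of letters is a description of the window, and binding was not measured.

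Il22 has a near-copy in the C57BL/6 genome, Iltifb, and the start of both coding sequences is shown because this likeness limits what a read can tell about Il22. The lines give coding bases 1 to 150 of the GENCODE vM21 reference transcripts of Il22 and Iltifb, both on chromosome 10 of build GRCm38, with differing bases in capitals.
Il22: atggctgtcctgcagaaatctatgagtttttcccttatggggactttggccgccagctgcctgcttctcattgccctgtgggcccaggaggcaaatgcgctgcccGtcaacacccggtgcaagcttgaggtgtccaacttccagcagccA
Iltifb: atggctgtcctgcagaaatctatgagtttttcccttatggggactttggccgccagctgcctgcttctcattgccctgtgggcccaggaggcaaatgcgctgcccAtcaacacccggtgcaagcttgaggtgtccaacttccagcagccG
The coding sequences differ at 2 of these 150 bases and at 9 of all 537, an identity of 98.3%. Of the 1061 stretches of 50 bases in the Il22 transcript, 435 (41.0%) occur unchanged in the Iltifb transcript. Il17a and Il17f share 0 of 1122 such stretches, so their reads are separable.

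Adcy10, the targeted gene, was listed at 0 FPKM in 12 of 12 libraries, WT included, and so does not check the genotype labels. The libraries summed to 547870 to 594750 FPKM and had 9778 to 9925 genes at 1 FPKM or more. The files give no read counts, so relative depth was approximated. The most common ratio of low values between each library and WT baseline replicate 1 put it at 0.731 to 1.025 of that library. Fragment numbers were approximated from the most common product of low FPKM and GENCODE length among genes with 1 transcript. That value rested on 57 to 84 genes per library. It places the members at about 306 to 1762 fragments per library (Il17a), 71 to 2070 (Il17f) and 515 to 3324 (Il22), an approximation that gives counting errors of at most 5.7%, 11.9% and 4.4%. Cd3e and Cd4, which define the labelled cell type, were at 169 FPKM or more and 119 FPKM or more in every library. Cd4 was at 119 to 133 FPKM in the 6 libraries with cytokines and 139 to 179 FPKM in the 6 at baseline. For Cd3e these ranges were 175 to 230 FPKM and 169 to 260 FPKM.

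With polarizing cytokines, Il17f rose and was the member with the largest difference between media. Il17f was at 55.7, 55.5 and 73.8 FPKM in Adcy10-/- cells with cytokines (replicates 1, 2 and 3), against 2.39, 21.4 and 27.9 FPKM in Adcy10-/- cells at baseline. In WT cells it was at 90.0, 33.5 and 78.7 FPKM with cytokines, against 10.4, 3.20 and 34.0 FPKM at baseline. All 3 Adcy10-/- libraries with cytokines lay above all 3 at baseline, whereas in WT cells the lowest library with cytokines lay just under the highest at baseline. Of all tested genes, 9.28% were higher with cytokines without overlap in Adcy10-/- cells. In bulk RNA, fewer cells making a transcript and less transcript per cell cannot be told apart, here and below.

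Averaged over the genotypes, Il17f was 5.04-fold higher with cytokines, a log2 change of 2.33 on the log2(FPKM + 1) scale (SE 0.59, 95% interval 1.05 to 3.62, adjusted p = 0.022 in limma with Benjamini-Hochberg adjustment over all 10126 tested genes). Of the 3 members only Il17f was called in this comparison, in which 13.2% of all tested genes were called, 6.57% as higher and 6.68% as lower. The call was lost without WT baseline replicate 2 (log2 change 1.96, adjusted p = 0.0533 in limma), without WT cytokines replicate 1 (2.20, 0.0526) or without Adcy10-/- cytokines replicate 3 (2.27, 0.0512). An exact permutation test of Il17f alone, with medium labels permuted within genotype over 400 arrangements, gave a two-sided p of 0.01, or 0.06 after adjustment over the 6 tests of single members.

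Within a genotype the Il17f difference was of similar size but was not called. The log2 change was 2.26 in Adcy10-/- cells (SE 0.83, interval 0.44 to 4.07, adjusted p = 0.188 in limma), where 4.27% of tested genes were called, 2.14% as higher. Without Adcy10-/- baseline replicate 1 it was 1.29 (adjusted p = 0.51 in limma). The change was 2.41 in WT cells (SE 0.83, interval 0.59 to 4.23, adjusted p = 0.131), where 4.93% of tested genes were called, 2.65% as higher, and 1.66 without WT baseline replicate 2 (adjusted p = 0.445 in limma). Libraries with the same replicate number resembled each other within each genotype, so the same contrast was also fitted with the number as a block within genotype. In that fit Il17f passed in Adcy10-/- cells (adjusted p = 0.027 in limma, 11.8% of genes called), in WT cells (0.0184, 15.5% called) and over both genotypes (0.00237, 26.7% called). With a block shared by both genotypes it passed in WT cells (adjusted p = 0.0455 in limma, 14.8% called) and over both genotypes (0.00692, 25.9% called), and missed the threshold in Adcy10-/- cells (0.0701, 10.7% called). Without the block, leaving out WT baseline replicate 3 or Adcy10-/- baseline replicate 1 also brought the WT difference past the threshold, at log2 changes of 3.19 and 2.41 and adjusted p of 0.0475 and 0.0497.

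**Figure D1:**
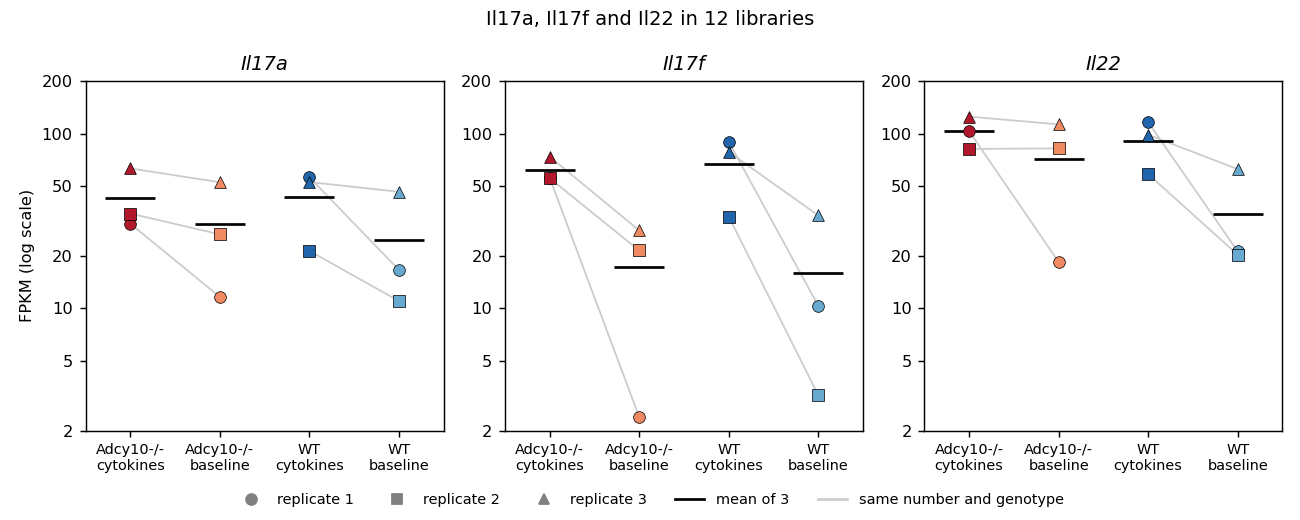
Levels of Il17a, Il17f and Il22 in FPKM on a log axis for the 12 libraries in 4 groups of 3; bars are group means and grey lines join libraries of the same genotype and replicate number. Il17f is between 33.5 and 90.0 FPKM in the libraries with cytokines and between 2.39 and 34.0 FPKM at baseline, while Il17a and Il22 overlap between media in both genotypes.

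Il17a levels overlapped between the media. The values were 30.5, 34.9 and 63.2 FPKM in Adcy10-/- cells with cytokines, against 11.6, 26.5 and 52.7 FPKM in Adcy10-/- cells at baseline. In WT cells they were 56.4, 21.3 and 52.8 FPKM with cytokines, against 16.6, 11.0 and 46.5 FPKM at baseline. Replicate 3 at baseline lay above at least 1 library with cytokines in each genotype. Matched by replicate number, all 3 pairs of each genotype had more Il17a with cytokines, a pattern shown by 19.7% of tested genes in Adcy10-/- cells and 23.1% in WT cells.

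The log2 change of Il17a was 0.65 in Adcy10-/- cells (SE 0.60, interval −0.65 to 1.96, adjusted p = 0.726 in limma) and 0.93 in WT cells (SE 0.60, interval −0.38 to 2.23, adjusted p = 0.45). Over both genotypes it was 0.79 (SE 0.42, interval −0.14 to 1.71, adjusted p = 0.271), with an exact permutation p of 0.13 (0.26 adjusted over 6). With the number as a block within genotype, the average of 0.79 passed (adjusted p = 0.016 in limma) while the single genotypes did not (0.165 in Adcy10-/- and 0.0503 in WT cells). With a block shared by both genotypes the average missed the threshold (0.0555).

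Il22 was the most abundant of the 3 transcripts in every library. It was at 103, 81.7 and 125 FPKM in Adcy10-/- cells with cytokines, against 18.4, 82.3 and 113 FPKM in Adcy10-/- cells at baseline. In WT cells it was at 116, 58.6 and 98.5 FPKM with cytokines, against 21.2, 20.3 and 62.6 FPKM at baseline. Replicates 2 and 3 of the Adcy10-/- baseline group were already in the range of the libraries with cytokines. Only replicate 1 of that group was low. WT baseline replicate 3, at 62.6 FPKM, also lay in that range, just above its lowest value of 58.6 FPKM. Among all tested genes, 6.40% to 10.2% were more abundant than Il22 in Adcy10-/- cells with cytokines and 6.92% to 14.8% in WT cells with cytokines.

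The log2 change of Il22 with cytokines was 0.85 in Adcy10-/- cells (SE 0.60, interval −0.45 to 2.16, adjusted p = 0.598 in limma) and 1.51 in WT cells (SE 0.60, interval 0.20 to 2.82, adjusted p = 0.19). Over both genotypes it was 1.18 (SE 0.42, interval 0.26 to 2.11, adjusted p = 0.0931), with an exact permutation p of 0.05 (0.15 adjusted over 6). Matched by number, Il22 exceeded its baseline level in 3 of 3 pairs of WT cells and in 2 of 3 of Adcy10-/- cells, where the pair numbered 2 differed by −0.01. Without Adcy10-/- baseline replicate 1 the change in Adcy10-/- cells was 0.077 (adjusted p = 0.967 in limma), and without all 4 libraries numbered 1 it was 0.068 in Adcy10-/- cells and 0.57 over both genotypes. The average passed with the block within genotype (adjusted p = 0.0256 in limma), with the shared block (0.0301), and, with no block, when WT baseline replicate 3 was left out (log2 change 1.44, adjusted p = 0.0396).

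Iltifb, whose reads cannot be fully separated from those of Il22, was at 13.2, 9.49 and 15.4 FPKM in Adcy10-/- cells with cytokines, against 2.01, 9.76 and 12.9 FPKM at baseline. In WT cells it was at 15.5, 6.14 and 12.4 FPKM with cytokines, against 2.80, 2.17 and 7.54 FPKM at baseline. It stood at 10.5% to 13.4% of the Il22 level in all 12 libraries, and its order of libraries was close to that of Il22. Its average log2 change was 1.06 (SE 0.38, adjusted p = 0.0968 in limma). How the counting shared reads between Il22 and Iltifb is not given in the sources used here, and the Il22 values are uncertain to that extent.

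**Figure D2:**
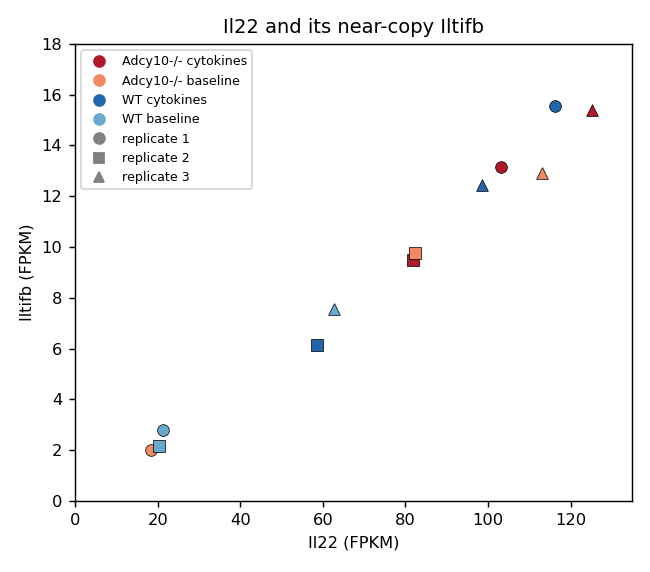
FPKM of Iltifb against FPKM of Il22 in the 12 libraries, with colour for the group and shape for the replicate number. The points lie near a line, with Iltifb at 10.5% to 13.4% of Il22.

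The genotypes were compared in each medium. With cytokines, Il17a averaged 42.9 ± 17.7 FPKM in Adcy10-/- cells and 43.5 ± 19.3 FPKM in WT cells (SD, n = 3 each). Il17f averaged 61.7 ± 10.5 FPKM in Adcy10-/- cells and 67.4 ± 29.9 FPKM in WT cells. Il22 averaged 103 ± 21.7 FPKM in Adcy10-/- cells and 91.1 ± 29.5 FPKM in WT cells. For each member the genotypes overlapped, and the difference was smaller than the SD within either group, with log2 differences of 0.02 for Il17a (interval −1.28 to 1.33), −0.02 for Il17f (−1.84 to 1.80) and 0.21 for Il22 (−1.09 to 1.52). All 3 adjusted p-values were 1 in limma.

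At baseline, Il17a averaged 30.3 ± 20.8 FPKM in Adcy10-/- cells and 24.7 ± 19.1 FPKM in WT cells. Il17f averaged 17.3 ± 13.3 FPKM in Adcy10-/- cells and 15.9 ± 16.1 FPKM in WT cells. Il22 averaged 71.3 ± 48.2 FPKM in Adcy10-/- cells and 34.7 ± 24.2 FPKM in WT cells. Baseline levels of every member overlapped between genotypes, and Il22 had the widest gap, at 18.4 to 113 FPKM in Adcy10-/- cells and 20.3 to 62.6 FPKM in WT cells. The log2 differences were 0.30 for Il17a (interval −1.01 to 1.61), 0.13 for Il17f (−1.68 to 1.95) and 0.87 for Il22 (−0.43 to 2.18), each with an adjusted p of 1 in limma.

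Averaged over both media, the Adcy10-/- minus WT difference was 0.16 for Il17a (interval −0.76 to 1.09), 0.06 for Il17f (−1.23 to 1.34) and 0.54 for Il22 (−0.38 to 1.47), with exact permutation p of 0.72, 0.925 and 0.255 and adjusted p of 1 in limma. The share of all tested genes called was 0% in each of the genotype comparisons and for the interaction in limma. Of 10126 tested genes, 202 had an unadjusted limma p under 0.05 with cytokines, 118 at baseline, 180 over both media and 112 for the interaction. Each count is below what that threshold passes on average when no gene differs. The intervals are wide, and for each member they include both a 1.5-fold decrease and a 1.5-fold increase with cytokines, so differences of that size were not detectable here.

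The sign of the Il17a and Il17f averages depended on single libraries. Il17a turned negative without WT baseline replicate 2 (−0.05), Adcy10-/- baseline replicate 3 (−0.09) or WT cytokines replicate 2 (−0.06). Il17f turned negative without each of these libraries in turn (−0.32, −0.23 and −0.16), and also without Adcy10-/- baseline replicate 2 (−0.14) or Adcy10-/- cytokines replicate 3 (−0.01). Il22 averaged over both media kept its sign in 12 of 12 such fits, between 0.29 and 0.93, although with cytokines alone it was −0.071 without WT cytokines replicate 2. Matched by number with cytokines, Il22 was higher in Adcy10-/- cells in 2 of 3 pairs, Il17a in 2 of 3 and Il17f in 1 of 3.

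The cytokine effect in Adcy10-/- cells minus that in WT cells was −0.27 for Il17a (interval −2.12 to 1.58), −0.15 for Il17f (−2.72 to 2.42) and −0.66 for Il22 (−2.51 to 1.19). None of these 3 interactions passed (adjusted p = 1 for each in limma). A single library again decided the sign for Il17a and Il17f, at 0.15 and 0.60 without WT baseline replicate 2 and at 0.24 and 0.42 without Adcy10-/- baseline replicate 3. The Il17f interaction was also above 0 without Adcy10-/- baseline replicate 2 (0.24), WT cytokines replicate 1 (0.11) or WT cytokines replicate 3 (0.017).

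**Figure D3:**
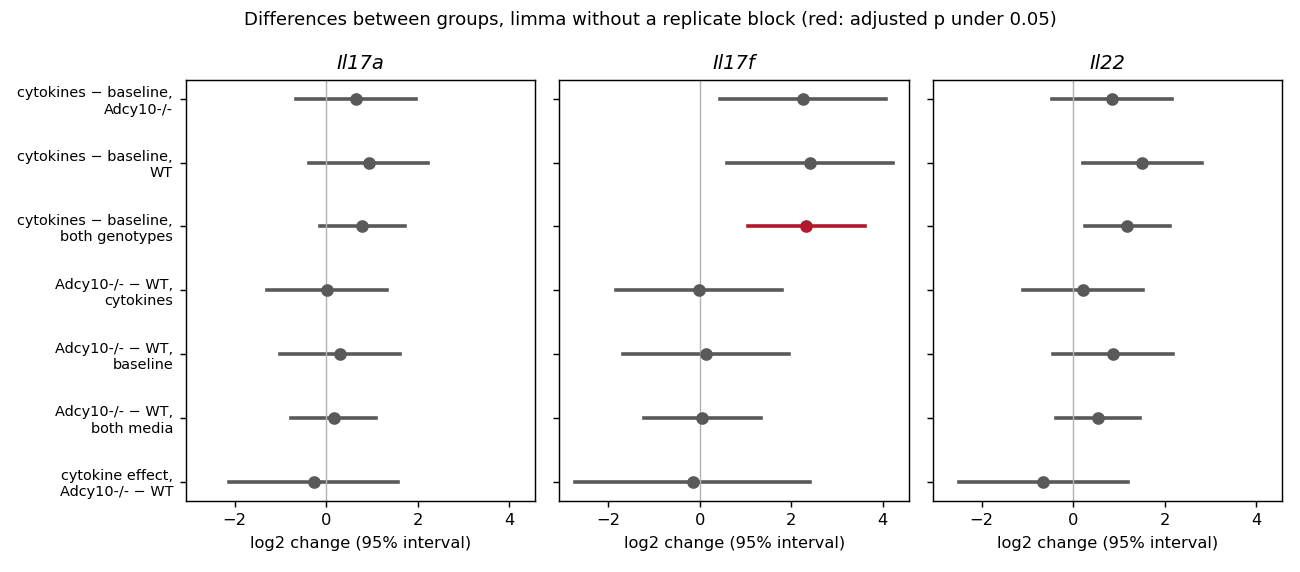
Log2 differences with 95% intervals for the 3 genes in the 7 comparisons, from limma with no block. The average cytokine effect on Il17f, at 2.33, is the only estimate drawn in red as called, and all genotype and interaction intervals span 0.

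The proportions among the 3 transcripts also differed between media. A plain ratio of FPKM within a library, as listed here, needs no scaling between libraries. The ratio tests below added 1 to each FPKM value and so are not wholly free of scale. With other pseudocounts, the log2 difference of Il17f over Il17a between media was 1.231 to 1.665. Il17f over Il17a was 1.83, 1.59 and 1.17 in Adcy10-/- cells with cytokines, against 0.206, 0.808 and 0.530 in Adcy10-/- cells at baseline. In WT cells it was 1.60, 1.57 and 1.49 with cytokines, against 0.623, 0.290 and 0.732 at baseline. Il17f was therefore above Il17a in all 6 libraries with cytokines and below it in all 6 at baseline, and its share of the summed Il17a and Il17f level was 53.9% to 64.6% with cytokines and 17.1% to 44.7% at baseline.

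The ratio of Il17f to Il17a was 2.91-fold higher with cytokines, a log2 difference of 1.54 (exact permutation test, two-sided p = 0.005, the smallest that 400 arrangements can give, 0.015 adjusted over 6 ratio tests). It was higher in 6 of 6 number pairs, for which the sign-flip permutation p was 0.03125, the smallest possible, or 0.0938 after adjustment. The adjusted p stayed between 0.015 and 0.03 in exact permutation tests with each library left out in turn. Between genotypes the ratio differed by −0.10 (exact permutation p = 0.675).

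Il22 over Il17f moved the other way, with a log2 difference of −1.15 (exact permutation p = 0.005, 0.015 adjusted). The ratio was 1.25 to 1.85, median 1.58, in the 6 libraries with cytokines and 1.84 to 7.70, median 3.94, in the 6 at baseline, and the ranges touch only at their ends. It was lower with cytokines in 6 of 6 number pairs (0.0938 after adjustment in the sign-flip permutation test). Without WT cytokines replicate 1 or 3 the adjusted p was 0.06 in the exact permutation test, at differences of −1.12 and −1.11. Il22 over Il17a was 1.87 to 3.38 with cytokines and 1.28 to 3.10 at baseline, a log2 difference of 0.39 that did not pass (exact permutation p = 0.09, 0.15 adjusted). The Adcy10-/- minus WT differences in the Il22 ratios did not pass either, at 0.38 over Il17a (exact permutation p = 0.1) and 0.49 over Il17f (0.13). The ratio over Il17f passed without WT baseline replicate 2 (0.73, exact permutation p adjusted to 0.03).

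**Figure D4:**
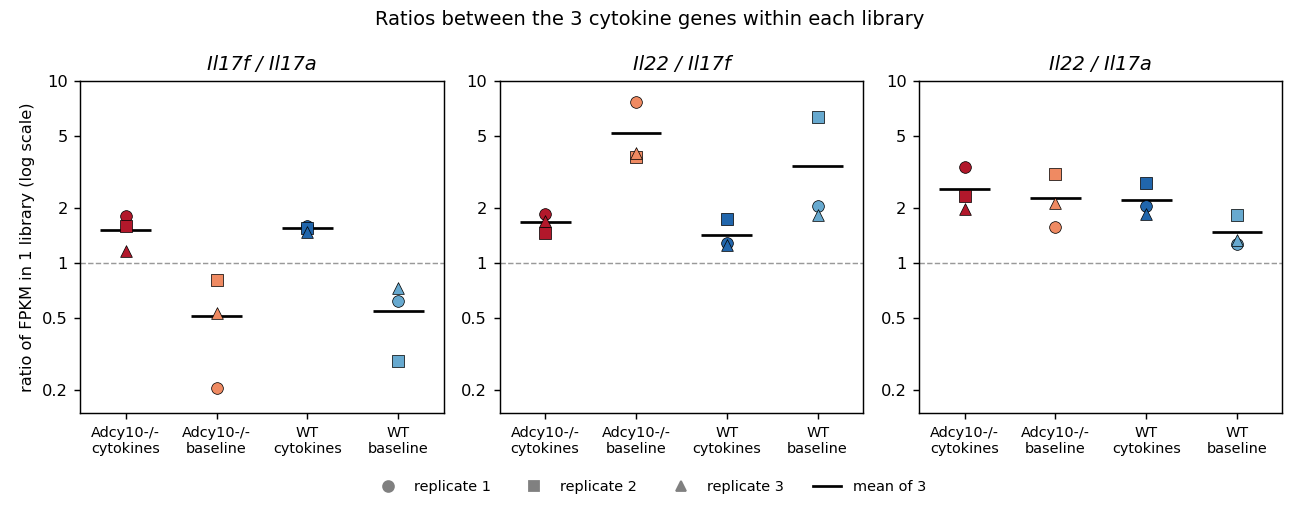
Ratios of FPKM between the 3 genes within each library, on log axes, by group, with bars at group means and a dashed line at 1. Il17f over Il17a is above 1 in all 6 libraries with cytokines and below 1 in all 6 at baseline.

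The 3 genes stood out for their spread between libraries of the same group. The within-group SD on the log2(FPKM + 1) scale was 0.87 for Il17a, 1.21 for Il17f and 0.87 for Il22, against a median of 0.11 over all tested genes. Of the tested genes, 0.553%, 0.346% and 0.563% had a larger SD than Il17a, Il17f and Il22. The coefficient of variation of Il17f was 17.0% in Adcy10-/- cells with cytokines and 76.9% at baseline, and 44.4% in WT cells with cytokines and 102% at baseline. These values exceed the approximate counting errors given above.

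Libraries that were high for 1 member were mostly high for the others, the exception being Adcy10-/- cytokines replicate 1, which was slightly above its group mean for Il22 (0.019) and below it for Il17a (−0.40) and Il17f (−0.13). Relative to its group mean, WT baseline replicate 3 was high for Il17a (1.14), Il17f (1.56) and Il22 (1.03). Adcy10-/- baseline replicate 3 was likewise high for all members (1.02, 1.15 and 1.00). Adcy10-/- baseline replicate 1 was lowest for all members (−1.07, −1.94 and −1.55). Over the 12 within-group deviations, Il17a and Il17f had a Pearson r of 0.925 and a Spearman rho of 0.909, Il17a and Il22 an r of 0.912 and a rho of 0.930, and Il17f and Il22 an r of 0.949 and a rho of 0.965. Without the 2 libraries farthest from the median of the first gene, r was 0.877, 0.846 and 0.948. These 3 relations were chosen after seeing the data and are given as a description, with no test, because libraries of the same number deviate together and are not independent. Replicate numbers hold 4 libraries each, too few for a value within a number.

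**Figure D5:**
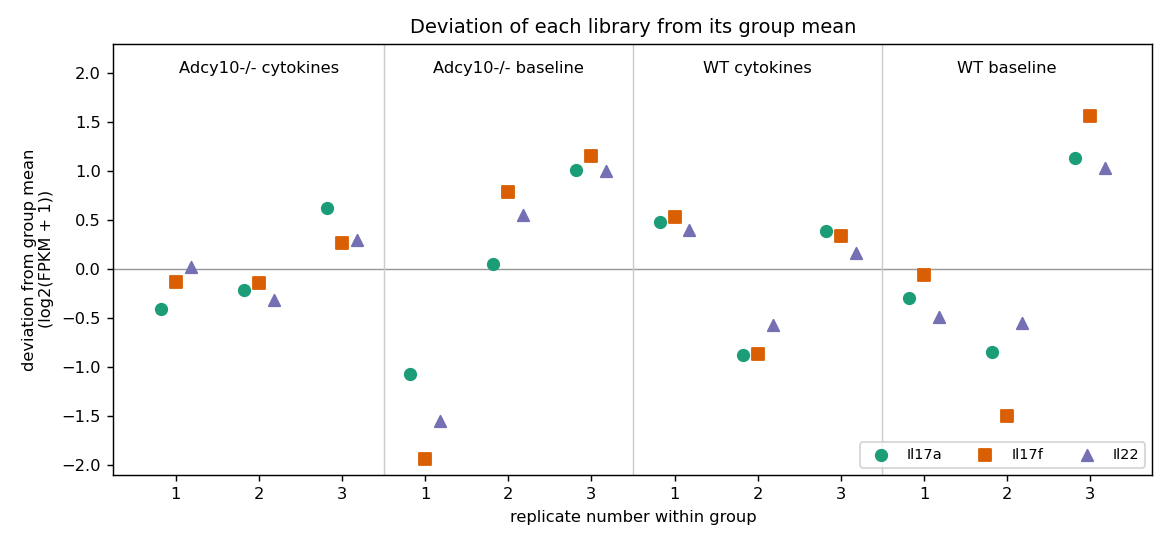
Deviation of Il17a, Il17f and Il22 from the group mean in each library, on the log2(FPKM + 1) scale, by group and replicate number. The 3 genes deviate to the same side in most libraries, from −1.94 for Il17f in Adcy10-/- baseline replicate 1 to 1.56 for Il17f in WT baseline replicate 3.

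Among 6981 tested genes with a mean of at least 5 FPKM, those most like each member over the 12 libraries were found by Pearson r, as a description. The highest values for Il17a belonged to Iltifb (0.921), Samd4b (0.915), the Notch receptor gene Notch1 (0.908), Il22 (0.907) and the metalloproteinase gene Adam19 (0.898). For Il17f they belonged to the dipeptidase gene Cndp2 (0.984), Csrnp1 (0.965), the plasma membrane calcium pump gene Atp2b4 (0.950), the hypoxia factor Hif1a (0.944) and the fatty acid elongase Elovl6 (0.943). For Il22 they belonged to Iltifb (0.994), Slc25a44 (0.937), the signal recognition particle gene Srp68 (0.925), the interferon-inducible Gbp2 (0.924) and Slc41a1 (0.920). With group means removed, Aim1 was among the 5 highest for all members (0.964 with Il17a, 0.948 with Il17f and 0.954 with Il22), and Cndp2 remained the highest for Il17f (0.983). All these values share the same 12 libraries and their differences between replicate numbers.

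Transcription factors listed as drivers of any of the 3 genes were measured in the same libraries. Whether each of them raises every member was not tested. Of 14 tested factors, 8 rose and 0 fell over both genotypes, with a median log2 change of 0.41 against −0.02 over all tested genes, of which 6.57% rose and 6.68% fell. In each genotype 4 factors rose, where 2.14% of tested genes rose in Adcy10-/- cells and 2.65% in WT cells. With the number as a block within genotype, 9 rose over both genotypes and 8 in each, where 12.1% of tested genes rose and 14.6% fell over both genotypes. The counts that follow are over both genotypes and are read against these shares, 6.57% and 6.68% with no block and 12.1% and 14.6% with the block within genotype. Among them, Maf rose by 1.23 (SE 0.12, adjusted p = 6.52e-05 in limma) and the AP-1 member Fosl2 by 0.99 (SE 0.12, adjusted p = 0.000392). Maf was at 4.39 to 8.40 FPKM in the 6 libraries with cytokines and at 1.56 to 2.95 FPKM in the 6 at baseline, with no overlap. Fosl2 did not overlap either, at 13.6 to 17.4 FPKM with cytokines and 5.02 to 9.22 FPKM at baseline. Rora, at 0.389 to 1.03 FPKM, lay below the filter.

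Of 9 tested receptor genes, which cover the cytokines that induce the members and the Th17 chemokine receptor Ccr6, 2 rose and 0 fell (median −0.06; 3 and 2 with the block), namely Il21r (0.83) and Il1r1, the IL-1 receptor (0.69). Il1r1 was at 0.702 to 1.48 FPKM with cytokines and 0.111 to 0.583 FPKM at baseline. It reached the filter only through libraries with cytokines, so its place in this count depends on that filter. Il23r, which encodes the IL-23 receptor chain, was below the filter at 0.290 to 1.01 FPKM. Of 15 factors listed as restraining any of the members, 5 rose and 1 fell (median 0.17), and with the block 8 rose and 1 fell. Eomes, a T-box factor, fell by 2.89 on the log2 scale, while the STAT3 feedback inhibitor Socs3 (1.17) and Il2 (0.91) were the largest that rose. Of 6 other tested ligands, 2 rose and 1 fell (median 0.11), or 3 and 2 with the block. Il21, which encodes a cytokine that acts back on Th17 cells, rose by 3.48, Il10 rose by 1.06 and Tnf fell by 0.38.

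Of the receptor and adaptor genes through which the 3 cytokines act, 3 of 9 passed the filter in these T cells, and of these Il10rb and the adaptor gene Traf3ip2 fell, each by 0.31 (adjusted p = 0.00124 and 0.00815 in limma). Il17ra had a log2 change of 0.37 that did not pass with no block (adjusted p = 0.0932) and passed with the block within genotype (adjusted p = 0.00498 in limma), in Adcy10-/- (0.0349) and in WT cells (0.045) as well. Of 8 RNA-binding regulators of cytokine mRNA, 2 rose and 0 fell (median 0.04), where 6.57% of tested genes rose and 6.68% fell, or 4 and 1 with the block. The 2 were Arid5a (0.90), whose product stabilizes inflammatory mRNAs, and the ribonuclease Zc3h12a (0.17). No tested gene of these lists was called for genotype or interaction.

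Other cell types were looked for through their markers, whose part in the results was not tested. The summed level of the 5 listed γδ T cell markers was 7.63 to 11.0 FPKM in Adcy10-/- cells with cytokines and 2.85 to 5.32 FPKM at baseline, and 7.34 to 10.3 FPKM in WT cells with cytokines and 2.66 to 5.65 FPKM at baseline. Of these 5, Cd163l1 was at 0.0361 FPKM or less and Sox13 at 0.210 FPKM or less in every library, and Maf, also expressed by Th17 cells, reached 8.40 FPKM. The γδ receptor genes Trdc, Tcrg-C1, Tcrg-C2 and Tcrg-V6 had no entry under these names among the gene IDs and so were not analysed. Among markers of group 3 innate lymphoid cells, Ncr1 was at 0.218 FPKM or less in every library, Cd93 at 0.298 FPKM or less, Kit at 0.790 FPKM or less, Arg1 at 1.03 FPKM or less and Il1r1 at 1.48 FPKM or less.

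For the 6 markers of NK and NKT cells the sum was 5.35 to 7.54 FPKM in Adcy10-/- cells with cytokines and 1.10 to 2.74 FPKM at baseline, and 5.27 to 9.72 FPKM in WT cells with cytokines and 1.41 to 3.13 FPKM at baseline. Gzma, at 4.54 to 8.80 FPKM with cytokines, supplied most of it, and Klrb1c was at 0.176 FPKM or less. B cell markers (5 listed of 6) divided the libraries by replicate number, at 1.82 to 7.29 FPKM in number 1 and 21.6 to 47.3 FPKM in numbers 2 and 3. No marker of any list was at 0 in all 12 libraries.

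Sums of myeloid markers reached higher upper ends with cytokines and in WT cells, with overlap in several of these comparisons. No tested myeloid marker was called for genotype in limma, with no block or with the shared block. The 4 listed neutrophil markers summed to 0.705 to 15.6 FPKM in Adcy10-/- cells with cytokines and 1.16 to 5.45 FPKM at baseline, and to 11.7 to 60.3 FPKM in WT cells with cytokines and 5.02 to 19.4 FPKM at baseline. The 6 listed macrophage and dendritic cell markers summed to 18.7 to 24.6 FPKM in Adcy10-/- cells with cytokines and 12.5 to 17.3 FPKM at baseline, and to 26.4 to 97.4 FPKM in WT cells with cytokines and 16.9 to 62.7 FPKM at baseline. The highest neutrophil sum was in WT cytokines replicate 3 and the highest macrophage sums in the WT libraries numbered 1. The median log2 change of the 2 tested neutrophil markers, S100a8 and S100a9, was 1.08 for cytokines over both genotypes and −1.06 for Adcy10-/- minus WT over both media. With no block 0 of the 2 were called in either comparison, and with the block within genotype both rose with cytokines. Lyz2, which supplied most of the macrophage sum, had log2 changes of 0.57 and −1.03 in the same comparisons (adjusted p = 0.342 and 1 in limma), and rose with cytokines with the block (3.79e-05). The 3 CD8 T cell markers summed to 16.8 to 21.1 FPKM in Adcy10-/- cells with cytokines and 22.1 to 27.4 FPKM at baseline, and to 18.5 to 24.3 FPKM in WT cells with cytokines and 24.1 to 26.3 FPKM at baseline. Most of this gap came from Crtam, with means of 8.26 and 13.8 FPKM in Adcy10-/- cells and 8.92 and 14.0 FPKM in WT cells. In the same order, Cd8b1 averaged 9.18 and 10.6 FPKM, and 10.9 and 10.3 FPKM. Cd8a averaged 0.834 and 0.860 FPKM, and 1.45 and 1.13 FPKM. The part of these other cell types in the levels of Il17a, Il17f and Il22 was not tested.

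Leaving out the 4 libraries numbered 1 gave a log2 change of 1.73 for Il17f over both genotypes, which no longer passed (adjusted p = 0.0999 in limma on 8 libraries), 0.57 for Il22 (0.336) and 0.43 for Il17a (0.622).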

How the data were processed

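Polyadenylated RNA was sequenced from 12 libraries. The authors deposited 1 FPKM value per gene entry and library. Per the submitters' processing notes, STAR 2.4.0f1, SAMtools 0.1.19, Cufflinks and HTSeq were used with build mm9; their roles and the annotation are not given in the sources used here. FPKM hold no counts, so no count model was used. Relative depth was read from the most common ratio between libraries of values under 0.3 FPKM. Entries of 258 repeated gene IDs were summed.

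Values were analysed as log2(FPKM + 1) without further scaling; the added 1 understates changes of low genes. Genes that reached 1 FPKM in 3 or more libraries were fitted as 4 group means with limma 3.58.1 (R 4.3.3, empirical Bayes with a variance trend), and Benjamini-Hochberg adjustment ran over every tested gene, called under 0.05. The pipeline was tested on simulated data. Ratios and single members were tested by exact permutation within genotype or medium. The permutation tests used numpy 2.4.6 in Python 3.11.15, the Spearman rho scipy 1.17.1 and the figures matplotlib 3.10.9. The 3 members and all gene lists were chosen with earlier results of these data known. Beside the members, Adcy10 and Iltifb, the text names the 5 genes most like each member and up to 3 called genes per list, with some further members given as values; some results are not reported here.

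Residuals of libraries with the same number correlated at 0.294 to 0.536 within a genotype (6 of 6 pairs over 0.1), so the block within genotype stands beside the cytokine effects. Between genotypes in a medium they correlated at 0.0736 to 0.523 (5 of 6 over 0.1). The most similar library shared the number for 12 of 12 libraries. Alternatives were other pseudocounts, no filter, other scalings, no trend, both blocks, another treatment of repeated IDs, and libraries left out.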

Additional observations from a re-analysis of the deposited data

How the results depend on the processing

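Over the settings other than leaving out single libraries, 2 of them chosen after seeing the data (Il22 and Iltifb summed, and only the 6 libraries compared), Il17f over both genotypes kept its direction at log2 changes of 1.73 to 2.49. With no expression filter its change was 2.33 and no longer passed (adjusted p = 0.0516 in limma), since more genes were tested; without the 4 libraries numbered 1 it was 1.73 (0.0999). Summing Il22 with Iltifb changed no call. The Il17f genotype difference with cytokines was 0.0019 after quantile normalization and 0.31 without the libraries numbered 1, against −0.02, and the cause was not tested. With the replicate block the genes called were 1086 in Adcy10-/- cells, 1502 in WT cells, 2625 over both genotypes and 3 for genotype over both media, against 432, 499, 1341 and 0; Il17f passed in WT cells (2.41) and Il22 over both genotypes (1.18). With the replicate block within genotype the counts were 1193, 1574 and 2708, and Il17f passed in Adcy10-/- (2.26) and WT cells (2.41), as did the averages of Il17a (0.79) and Il22 (1.18). The block changed no other call of a member; for the ratios, swaps within number pairs left 1.54 (Il17f over Il17a) and −1.15 (Il22 over Il17f) with adjusted permutation p of 0.0938. Without the libraries numbered 1, the genes called were 219 for cytokines in Adcy10-/- cells, 2 for genotype with cytokines, 2 over both media and 1 for the interaction; with only the 6 WT libraries, 275 were called for cytokines. With each library left out in turn, genes called were 202 to 466 for cytokines in Adcy10-/- cells, 164 to 536 in WT cells (lowest without WT baseline replicate 2), and 0 to 1 for genotype with cytokines, genotype over both media and the interaction. The cytokine effect on Il17f ranged over 1.29 to 2.83 in Adcy10-/- cells, 1.66 to 3.19 in WT cells and 1.85 to 2.72 over both genotypes, with 9 of 12 passing in limma and 1 of 12 in the exact test, and that on Il22 over 0.077 to 1.35 in Adcy10-/- cells, 1.24 to 2.03 in WT cells and 0.79 to 1.44 over both. Genotype differences ranged, for Il17a, Il17f and Il22 with cytokines, over −0.41 to 0.27, −0.45 to 0.25 and −0.071 to 0.42; at baseline over −0.21 to 0.87 for Il17a, −0.62 to 1.10 for Il17f and 0.37 to 1.65 for Il22; over both media, in limma and in the exact tests, over −0.093 to 0.45 and −0.32 to 0.54. Interactions ranged over −0.84 to 0.24 for Il17a, −1.12 to 0.60 for Il17f and −1.43 to −0.16 for Il22. The ratio differences ranged over −1.28 to −0.91 for Il22 over Il17f with cytokines, 0.35 to 0.73 for the same ratio between genotypes, and −0.29 to 0.11 for Il17f over Il17a between genotypes. With 3 libraries a group, a two-sided exact permutation test within 1 genotype cannot give a p below 0.10. The approximate counting errors of the members were smaller than their spread between libraries.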
